A study of Mus musculus with 2 samples.

Results

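The genes followed here move iron into cells, store it, release it and sense it: Tfrc, Fth1, Ftl1, Slc11a2, Slc40a1, Cybrd1, Heph, Aco1 and Ireb2. These 9 genes, of the 22909 with a named probe, were chosen by name for their role. They were read by 18 of the 56593 gene probes. RNA of whole colon from C57BL/6 mice was hybridized with a single dye (Cy3) to Agilent mouse expression arrays. The control group was Villin-Cre, and the other was Villin-Cre; EP4flox/flox (EP4 cKO). Both groups carry Cre recombinase under the villin promoter, which is active in the intestinal epithelium. Only the EP4 cKO group carries floxed Ptger4. Its floxed part is meant to be removed in that epithelium and not in the other cells of the colon wall. The labels state that RNA from 3 colon pools was mixed for an array, and they give no age. Each genotype had 1 array, so no difference has a replicate check, no test was possible, and the values describe these arrays alone.

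Dietary iron is reduced at the apical membrane, for which Cybrd1 (duodenal cytochrome b) is known, and enters the cell through the transporter Slc11a2 (DMT1). Other iron arrives from blood bound to transferrin, which is taken up by the transferrin receptor Tfrc. In the cytosol, surplus iron is held in ferritin, a shell of the heavy chain Fth1 and the light chain Ftl1. Iron leaves the cell through ferroportin (Slc40a1), and hephaestin (Heph) oxidizes it for export. The iron regulatory proteins Aco1 and Ireb2 bind RNA hairpins when iron is scarce, which stabilizes Tfrc mRNA and holds back ferritin translation, so that much of this control is exerted after transcription. The duodenum is the main site of iron absorption, and the colon is a minor one.

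Hypoxia-inducible factors are known to drive iron uptake genes in the intestine, and their core binding motif is ACGTG or GCGTG. Promoter windows from RefSeq (GRCm38.p6) were found for 6 of the 9 genes: Tfrc, Fth1, Ftl1, Cybrd1, Aco1 and Ireb2. Over all 32851 windows of 250 bases before a gene start, 38.6% held the motif on either strand, 16.7% held it 2 times or more and 6.58% held it 3 times or more. The Cybrd1 window, shown because Cybrd1 was the only member not well above background on either of the arrays, lies at chr2:71117804-71118053 on the plus strand and held 1 match, in capitals.
Cybrd1: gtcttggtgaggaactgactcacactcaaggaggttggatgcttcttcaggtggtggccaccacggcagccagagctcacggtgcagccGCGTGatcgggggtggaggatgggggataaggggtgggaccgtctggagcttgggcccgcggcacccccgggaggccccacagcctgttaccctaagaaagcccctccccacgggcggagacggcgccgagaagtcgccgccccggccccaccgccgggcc
Tfrc had 2 windows, and the one before its downstream start held 3 matches on the plus strand. The 30 bases around each are shown with the match in capitals, at chr16:32608882-32608911, chr16:32608976-32609005 and chr16:32609068-32609097, because this was the largest number of matches in a window of the 6 genes with one.
Tfrc site A: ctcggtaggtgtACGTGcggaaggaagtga
Tfrc site B: tgccttcagaagGCGTGcggagcgcgggct
Tfrc site C: atcgtggtcctcGCGTGgcgggcggaccag
The window before the upstream start of Tfrc held 2 matches, the Ftl1 window and 1 of 2 Fth1 windows held 1 each, and the Aco1 and Ireb2 windows held 0. These matches describe letters and not bound sites.

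Of the 9 genes, 8 were well above background on both arrays, and 0 of these 8 differed by more than 2-fold. Among all 14668 genes with a value, 12.9% differed by more than 2-fold (4.89% higher and 7.98% lower on the array labelled as EP4 cKO). The median log2 ratio of the 8 genes, EP4 cKO over Villin-Cre, was -0.06, against -0.10 over all genes with a value, and its sign turned under 4 other scalings besides that to E1A spots (0.058 to 0.096). At 1.5-fold, 1 member was higher (Heph, against 9.87% of all genes) and 1 was lower (Slc11a2, against 18.7%), or 2 of 8 against 28.5% in either direction. At 3-fold there were 0 of 8, against 2.22% of all genes higher, 3.74% lower and 5.95% in either direction. Among the 12808 genes well above background on both arrays, as these 8 were, 27.4% passed 1.5-fold, 10.3% passed 2-fold and 3.54% passed 3-fold. Signals were scaled so that the trimmed mean of each array was 2500, and the brightest probe of a gene stands for it. The error given after each ratio is the estimate of the scanner software for the spots, about 0.20 on the log2 scale for a bright probe, and it does not cover the mice. Among 289 probes with at least 6 replicate spots, the median SD of the ratio was 0.035. Relative to the median of the genes in the same 10% of mean signal, Heph stood at 0.76, Tfrc at 0.53, Ireb2 at 0.34 and Slc11a2 at -0.50, while Fth1 (-0.093), Aco1 (-0.059), Ftl1 (-0.040) and Slc40a1 (-0.027) lay close to it.

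**Figure D1:**
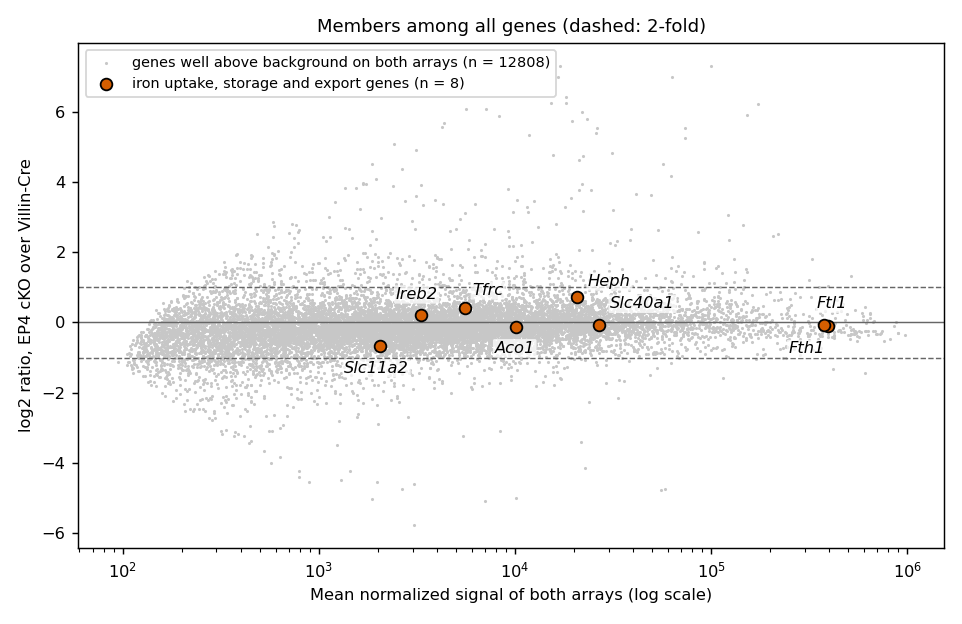
Log2 ratio of EP4 cKO over Villin-Cre (vertical axis) against the mean normalized signal of both arrays (horizontal axis, log scale) for the 12808 genes well above background on both, with 8 iron uptake, storage and export genes in orange. All 8 lie between the dashed lines of 2-fold, with Heph (0.73) highest and Slc11a2 (-0.67) lowest.

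The targeted gene, the labels and the cell types were looked at first. The brighter Ptger4 probe had normalized signals of 6227 (Villin-Cre) and 5661 (EP4 cKO), and the dimmer one 393 and 592. Ptger4 was thus not lower by 2-fold, the place of these probes relative to the deleted part is not known here, and all directions rest on the array labels. All 13 colon epithelium markers were well above background on both arrays. The largest differences among the marker lists were in blood and fibroblast genes, described with the erythroid iron genes below.

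The measured uptake genes lay within 2-fold, and the main transporter gene gave unlike ratios by probe. Slc11a2, the proton-coupled iron transporter, had 4 probes. Its brightest gave 2519 (Villin-Cre) and 1588 (EP4 cKO), a log2 ratio of -0.67 (scanner error 0.21). The second had 2006 and 1570, a log2 ratio of -0.35 (0.21), and the third had 413 and 500, a ratio of 0.28 (0.23). The fourth passed background only for EP4 cKO, at 92.1 against 99.9, and gives no fold. The brighter pair was therefore lower and the third probe higher on the array labelled as EP4 cKO, so a single value for Slc11a2 rests on the choice of probe.

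Cybrd1, the apical ferric reductase, had 2 probes, and neither was well above background on any array. Their signals were 29.0 and 26.8 for Villin-Cre and 13.1 and 12.2 for EP4 cKO. Since the lowest signals that counted as well above background were 125 (Villin-Cre) and 57.8 (EP4 cKO), no ratio is given. Of 10 small intestinal enterocyte markers, 5 had no value on either array: the brush border enzymes Lct and Sis, the fatty acid binding protein Fabp1 and the apolipoproteins Apoa1 and Apoa4, named after their values were seen. The other 5 had a value, with Fabp6 at 7779 and 25853, Anpep at 3856 and 1859, Rbp2 at 778 and 1091 and Mttp at 652 and 215 on both arrays, and Alpi at 28.1 and 153 above background for EP4 cKO alone.

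Tfrc, the receptor for iron-loaded transferrin, was higher on the array labelled as EP4 cKO by both probes. The brighter gave 4748 (Villin-Cre) and 6358 (EP4 cKO), a log2 ratio of 0.42 (scanner error 0.20). For the dimmer, signals of 1555 and 1797 gave a log2 ratio of 0.21 (0.21). The first ratio is 1.34-fold and the second is about the size of the scanner error. Of all genes with a value, 14.1% had a higher log2 ratio than the brighter Tfrc probe.

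The ferritin genes that store iron had nearly equal signals on the arrays. Fth1, the ferritin heavy chain that oxidizes iron, had 410545 for Villin-Cre and 379644 for EP4 cKO on its single probe, a log2 ratio of -0.11 (scanner error 0.20). Ftl1, the light chain, had 385394 and 369703 by its brighter probe, a log2 ratio of -0.06 (0.20), and 36847 and 39117 by its dimmer one, a log2 ratio of 0.09 (0.20). All of these ratios were smaller than the scanner error, and no spot was saturated. The sign of both ferritin genes turned with the scaling, as given below. Ferritin genes have pseudogene copies, 3 of which (Ftl1-ps1, Ftl1-ps2 and Ftl2-ps) stand in the gene table, and probes may not separate near-identical transcripts.

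Iron export held the member with the highest ratio. Heph, the membrane-bound ferroxidase that oxidizes iron for export, gave 15620 (Villin-Cre) and 25826 (EP4 cKO), a log2 ratio of 0.73 (scanner error 0.20). Its second probe had 13437 and 22787, a log2 ratio of 0.76 (0.20). These probes gave 1.65-fold and 1.70-fold, and 7.66% of all genes with a value had a higher log2 ratio than the first. The third probe of Heph passed background only for EP4 cKO (110 against 29.5), and its bound did not exceed 1-fold. Slc40a1, ferroportin, through which iron leaves the cell, had 27460 for Villin-Cre and 26294 for EP4 cKO, a log2 ratio of -0.06 (0.20).

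The iron regulatory proteins that sense cytosolic iron lay within 2-fold. Aco1, the cytosolic aconitase that becomes an RNA-binding protein when it loses its iron-sulfur cluster, had 10634 for Villin-Cre and 9632 for EP4 cKO by its brighter probe, a log2 ratio of -0.14 (scanner error 0.20). Its dimmer probe had 203 and 118, a log2 ratio of -0.78 with a larger error of 0.34. Ireb2, the second regulatory protein, which is degraded when iron is plentiful, had 3076 and 3542, a log2 ratio of 0.20 (0.20). Protein levels and RNA binding were not measured by these arrays.

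**Figure D2:**
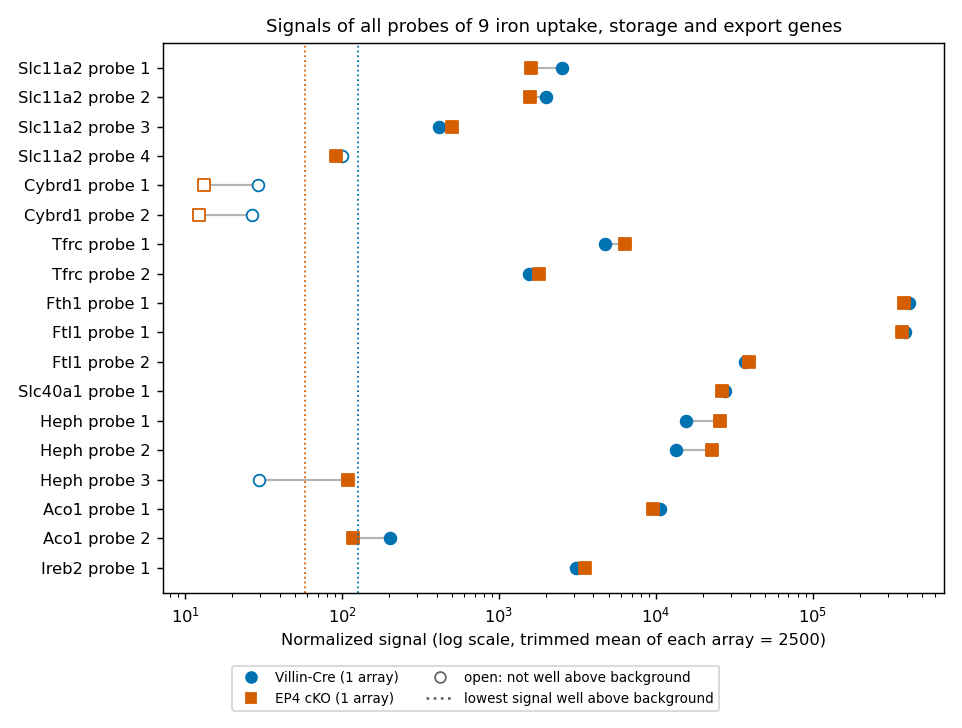
Normalized signal (horizontal axis, log scale) of all 18 probes of the 9 genes on the Villin-Cre array (blue circles) and the EP4 cKO array (orange squares), with open symbols where a probe was not well above background and dotted lines at the lowest signal that was. The 2 bright Heph probes shift to the right from Villin-Cre to EP4 cKO, the ferritin and Slc40a1 symbols overlap, and both Cybrd1 probes lie below the dotted lines.

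The ratios depended on how the arrays were scaled. Scaling to the 75th percentile raised the median over probes well above background on both arrays by 0.16, normexp with quantile normalization by 0.16, loess by 0.18 and a trimmed mean over all spots by 0.12. Under these settings, the filters on dim probes and the mean of all probes, Heph ran from 0.50 to 0.88, Tfrc from 0.32 to 0.58, Ireb2 from 0.20 to 0.36 and Slc11a2 from -0.67 to -0.19, each without a change of sign. The sign turned for Fth1 (-0.11 to 0.04), Ftl1 (-0.06 to 0.15), Slc40a1 (-0.13 to 0.09) and Aco1 (-0.46 to 0.01). Scaling to the E1A spike-in control spots raised all ratios by 1.07, so that Heph stood at 1.79, Tfrc at 1.49, Ireb2 at 1.27, Slc11a2 turned in sign to 0.40, and 5 of the 8 members were then more than 2-fold higher, as were 41.8% of all genes with a value, whose median was 0.90.

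**Figure D3:**
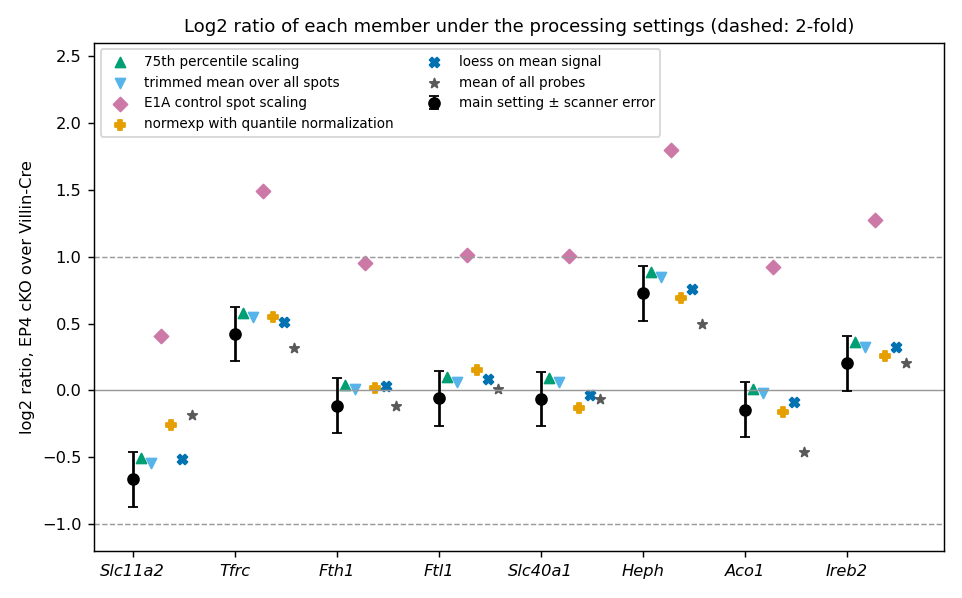
Log2 ratio of EP4 cKO over Villin-Cre (vertical axis) for 8 genes with a value, with the main setting as black points and the scanner error as bars, and the alternative settings as coloured symbols. Scaling to the E1A control spots (pink diamonds) lifts every gene by 1.07, and under the other settings drawn all values stay within the dashed lines of 2-fold.

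The rest of iron handling was followed in 7 lists with 94 genes, of which 85 had a value. Of these, 6 passed 2-fold toward EP4 cKO, against 4.89% of all genes, and 3 passed it toward Villin-Cre, against 7.98%. Their median log2 ratio was -0.11, close to the -0.10 of all genes. Of the 9 genes past 2-fold, the ratios of Ltf, Lcn2, Bdh2, Steap4 and Alas2 are bounds, since each was well above background on 1 array only.

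In the list of transferrin and metal reductases, 8 of 10 genes had a value, with 1 more than 2-fold higher, 0 lower and a median log2 ratio of -0.17. The ferric reductase Steap4, which inflammatory signals are known to induce, was at least 2.18-fold higher, at 28.5 for Villin-Cre and 274 for EP4 cKO, although its bound was within 2-fold after normexp with quantile normalization (0.79 on the log2 scale). Transferrin itself, Trf, had a log2 ratio of 0.14, Steap1 had -0.05, and the lysosomal channel Mcoln1 had -0.83. Among iron chaperones and ferritin turnover, 7 of 10 genes had a value, with 0 higher, 1 lower and a median of -0.08. Pcbp1, the main cytosolic iron chaperone, had a ratio of -0.08 and Ncoa4, the receptor that carries ferritin to the lysosome, 0.07. Pcbp2, a second chaperone, had a ratio of -0.90 by its brightest probe and -0.26 by another. Pcbp4 fell from 731 to 344, a log2 ratio of -1.09, which lay within 2-fold under every other scaling, such as the 75th percentile (-0.93), and with the mean of its probes (-0.54).

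Hepcidin and the genes that control it gave 1 gene more than 2-fold higher and 0 lower among 13 of 16 genes with a value, with a median log2 ratio of 0.07. Hamp2, a mouse paralogue of hepcidin, rose from 172 to 450, a log2 ratio of 1.39 (scanner error 0.30), and was within 2-fold after normexp with quantile normalization (0.89). Hamp, which encodes hepcidin, the hormone that removes ferroportin from the membrane, was at 28.3 and 67.4 and gave no fold; it was named after its values were seen. Of the BMP pathway genes of the list, Smad4 had a ratio of 0.16, Smad1 of 0.16 and Bmp2 of 0.21, while Smad5 had -0.44 (-0.83 by its second probe) and Smad7 had 0.40, these last named after their values were seen.

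In the list of siderophore and lactoferrin defense, 3 of 4 genes were more than 2-fold higher, against 4.89% of all genes, but all as bounds: they have a value only because they passed background for EP4 cKO, where they are high, so nothing is read from this count. Ltf, the secreted iron-binding lactoferrin, was at 91.0 for Villin-Cre and 941 for EP4 cKO, at least 7.51-fold higher (2.91 on the log2 scale). Under the other scalings its bound ran from 2.02 (normexp with quantile normalization) to 3.98 (E1A spots). Lcn2, which captures bacterial siderophores, was at 120 and 356, at least 2.84-fold higher, and Bdh2, an enzyme linked to a proposed mammalian siderophore, at 68.3 and 362, at least 2.89-fold higher. Slc22a17, a proposed receptor for Lcn2, had 242 and 141, a log2 ratio of -0.78. The median of the list was 1.52 with these bounds, and the only gene of the list well above background on both arrays was Slc22a17, at -0.78. Both defense proteins are also made by neutrophils and by inflamed epithelium.

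In the HIF and oxygen sensing list, all 8 genes had a value, with 1 more than 2-fold higher, 0 lower and a median log2 ratio of -0.06. Egln3, an oxygen-sensing hydroxylase that is itself a target of hypoxia-inducible factors, rose from 3366 to 15211, a log2 ratio of 2.18 (scanner error 0.20). Hif1a had 16567 and 31114, a ratio of 0.91 (0.20), and passed 2-fold with scaling to the 75th percentile, to the trimmed mean over all spots and to the E1A spots. Epas1, which encodes HIF-2 alpha, the form tied to intestinal iron uptake, had 48115 and 37895, a ratio of -0.34 (0.20), and the hydroxylase gene Egln2 had -0.03. Egln3 stayed past 2-fold under all 8 settings tried.

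Heme and mitochondrial iron genes were mostly close to the median of all genes. Of 18 genes of heme handling with a value, out of 19, 0 were higher and 1 was lower by more than 2-fold, with a median log2 ratio of -0.23. Alas2, the first enzyme of heme synthesis in red cell precursors, was at 506 for Villin-Cre and 13.9 for EP4 cKO, at least 8.75-fold lower (-3.13 on the log2 scale). Under the other scalings its bound was smaller in size, from -3.01 (trimmed mean over all spots) to -1.30 (normexp with quantile normalization). Alas1, the enzyme of the same step in other cells, had a ratio of 0.26, Urod had -0.26, and the folate and heme carrier Slc46a1 had -0.71. Ppox, a later enzyme of heme synthesis named after its values were seen, had -0.55 by its brighter probe but 1105 and 252, a ratio of -2.13, by the other, and passed 2-fold lower with the mean of its probes. The heme oxygenase gene Hmox1, named after its values were seen, was at 463 and 740, a ratio of 0.68. All 27 genes of mitochondrial iron and iron-sulfur cluster assembly had a value, with 0 higher, 1 lower and a median of -0.13. Slc25a37, the mitochondrial iron importer known from red cell precursors, fell from 4834 to 2283, a log2 ratio of -1.08, with -0.25 by its second probe, and lay within 2-fold under every other scaling, such as loess (-0.96). Fdx1 had a ratio of 0.06 and Ciao2b 0.14. Ndor1 had -0.26 by its brightest probe (595063 and 496622) and 0.03 by the other (2085 and 2134). Whether the brightest probe reads Ndor1 alone was not tested.

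Markers of blood moved in the same direction as Alas2 and Slc25a37. Of 10 erythroid and blood markers, 4 had a value, and 3 of these passed 2-fold with the lower signal for EP4 cKO. The hemoglobin genes Hba-a1 (112282 and 4216), Hba-a2 (107146 and 3936) and Hbb-bt (19536 and 608) had log2 ratios of -4.74, -4.77 and -5.01. Summed over the list, the signal was 240450 (Villin-Cre) and 9909 (EP4 cKO), while Slc4a1, Epb42 and Rhag, 3 genes of the red cell membrane, did not reach well above background. Ermap, another erythroid membrane gene and the remaining marker with a value, had 1486 and 1149, a ratio of -0.37, far smaller in size than those of the hemoglobin genes. In bulk tissue, fewer cells of a type and less RNA per cell cannot be told apart, and the part of blood RNA in the values of iron genes was not tested.

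Of 6 fibroblast markers, 5 had a value, and all 5 were more than 2-fold lower, against 7.98% of all genes. For 3 of these the ratio is a bound. They have a value only because they passed background for Villin-Cre, where they are high, so nothing is read from this count. The 2 well above background on both arrays were Dcn, with a log2 ratio of -5.77, and Col1a2, with -5.03. As bounds, Col3a1 was at least 28.0-fold, Col1a1 at least 22.7-fold and Lum at least 8.91-fold lower. The summed signal of the list was 13068 (Villin-Cre) and 290 (EP4 cKO). Macrophages, which recycle iron and express Slc40a1, had 7 of 11 markers with a value, 1 higher (Mrc1, at least 4.31-fold) and 0 lower, with a summed signal of 7400 and 5389. Csf1r had a ratio of -0.79 by its brighter probe and -0.34 by the other. Mertk had -0.55, Cd68 -0.09 and C1qb 0.33, and the defining marker Adgre1 did not reach well above background. Colon epithelium markers had 2 of 13 higher (Krt20 at 1.80 and Aqp8, a bare 2.004-fold) and 0 lower. Their ratios were above 0 for 9, among them Krt8 (0.05) and Krt19 (0.32), and below 0 for 4, with Guca2a lowest (-0.75), and the list had a summed signal of 2300580 and 2985200. In the other lists, small intestinal markers had 1 higher and 2 lower (Fabp6 1.73, Anpep -1.05, Mttp -1.60, and Rbp2 within 2-fold at 0.49). Hepatocyte markers had 2 higher and 0 lower (Tat 1.75 and Apob 1.02, with Ttr -0.49, Alb -0.78 and a bound of 0.65 for Serpina1a). Smooth muscle markers had 0 higher and 1 lower (Cnn1 -2.73, with Actg2 0.72 and Tagln 0.38). Acta2 had 0.62 by its brightest probe but -0.58 by its second, so its direction rests on the choice of probe. Beyond the 3 brightest genes of each marker list, all markers were named after their values were seen. The part of these cell types in the ratios of the iron genes was not tested.

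**Figure D4:**
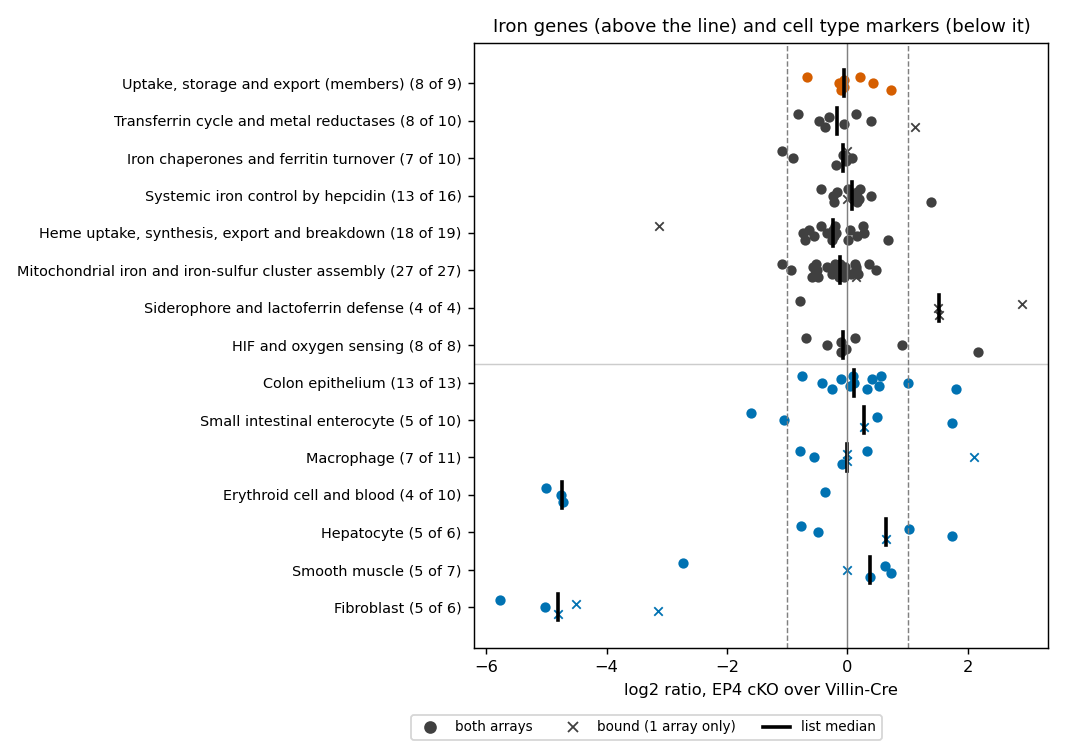
Log2 ratio of EP4 cKO over Villin-Cre (horizontal axis) for each gene with a value in the member list (orange), the 7 other iron lists (grey) and the 7 cell type marker lists (blue), with the number of genes with a value of all genes in brackets, crosses for bounds and bars for list medians. The medians of the iron lists lie near 0 apart from the siderophore list, where 3 of 4 values are bounds (1.52 with them, -0.78 for its single gene on both arrays). The erythroid (-4.75) and fibroblast medians lie far to the left. In the fibroblast list 3 of 5 values are bounds (-4.81 with them, -5.40 for its 2 genes on both arrays).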

How the data were processed

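The authors deposited 1 Agilent Feature Extraction file per genotype (12.0.3.1 per the file headers, 11.5.1.1 per the submitters' processing notes). The deposited intensity is the processed signal, background-subtracted and detrended by the scanner software and not normalized between arrays, and its error column was used as given. The flags of the scanner software for outlier, saturated and dim spots were taken as deposited, and the median spot and background signals served for normexp. Control spots and outlier spots on either array were left out, and spots of a probe were averaged. Following the methods of the study, 2% of probes were trimmed at each end and each array was scaled to a trimmed mean of 2500 (factors 3.45 for Villin-Cre and 2.68 for EP4 cKO). A probe well above background on 1 array gave a bound against the higher of its dim signal and the floor of that array (125 or 57.8), and a bound that did not exceed 1-fold was counted as 0. Of 56593 probes, the Villin-Cre array had 45.4% well above background and the EP4 cKO array 51.6%. By RefSeq accession without version, 58.3% were named from a gene table of GRCm38.p6, and since the array grid refers to an older build no gene coordinates are given beyond those of the printed promoter letters.

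No test was possible with a single array a genotype, and the number of arrays limits the precision. The members and gene lists were chosen with earlier results of these data known. The genes named are all members, all genes of the other iron lists past 2-fold with up to 3 others of the highest mean signal per list, and up to 3 markers of the highest mean signal per cell type, and any other gene or marker was named after its values were seen. Likeness of pattern to other genes was not measured, since 2 arrays allow none. The alternatives were scaling to the 75th percentile, to all spots or to 7 E1A control probes, normexp (offset 50) with quantile normalization, loess (span 0.3), probes on both arrays only, no filter on dim probes, the mean of all probes, and thresholds of 3-fold and 1.5-fold. The steps were tested on simulated data. Python 3.11.15, numpy 2.4.6, pandas 2.3.3, statsmodels 0.14.6, matplotlib 3.10.9, R 4.3.3 and limma 3.58.1 were used.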

Additional observations from a re-analysis of the deposited data

How the results depend on the processing

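The count of 0 members past 2-fold was the same in both directions under every setting except these: 5 members (Tfrc, Ftl1, Slc40a1, Heph and Ireb2) were higher with scaling to the E1A control spots, where 41.8% of all genes were, 1 was lower without a filter on dim probes (Cybrd1, which was not well above background), and 1 was higher and 1 lower at 1.5-fold. The median of the members, -0.06, was 1.01 with E1A scaling and turned in sign with the 75th percentile (0.096), the trimmed mean over all spots (0.063), normexp (0.086) and loess (0.058), so that its direction is not settled. Of the other iron genes, 6 were higher, but 37 of 85 with E1A scaling (against the same 41.8%), 2 among genes well above background on both arrays and 2 at 3-fold (against 2.22% of all genes). The 3 lower became 1 (Alas2) with the 75th percentile, all spots, E1A spots, normexp, loess or 3-fold (against 3.74% of all genes at 3-fold). The count was 9 of 94 without a filter on dim probes, and 12 of 85 at 1.5-fold, where 18.7% of all genes were lower. The cause of these changes was not tested, apart from what the thresholds and filters change by construction. No sample could be left out. No paired analysis was possible because there was 1 array per genotype. For Cybrd1, Hamp and other dim probes, signals near background set the limit.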
